A study of Homo sapiens with 7 samples.

Results

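The genes described here are 9 genes of the NRF2 pathway and the oxidative stress response: NFE2L2, KEAP1, GCLC, GCLM, TXNRD1, SRXN1, NQO1, HMOX1 and OSGIN1. They were named by symbol, with earlier results of these data known. Each was looked up in a table of log2 RPKM (log2 reads per kilobase of gene and per 1e6 reads) for 13142 genes. The table lists 8 of the 9 genes. SRXN1, the sulfiredoxin gene, is not analysed here. All 8 listed genes were among the 11154 genes with log2 RPKM above 0 in at least 3 of the 7 libraries, the set in which tests were run.

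The libraries come from BHT-101, an established human anaplastic thyroid cancer cell line. The 4 knockout (KO) clones carry premature stops in ASH1L, which encodes a histone-methylating enzyme of the Trithorax family, and each was sequenced once. Both alleles stop after residue 413 in KO1, residue 610 in KO2 and residue 2129 in KO3, while KO4 has stops after residues 2169 and 2174. Wild-type (WT) BHT-101 cells were sequenced as 3 biological replicates, WT1 to WT3. All cells were grown in DMEM with serum, pyruvate and antibiotics, and no oxidant or NRF2 activator is named in the labels. No clone with intact ASH1L was analysed, so the loss of ASH1L and other differences between single-cell clones and the parental line cannot be told apart.

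NRF2, the protein of NFE2L2, is a basic leucine zipper transcription factor. KEAP1 binds it in the cytoplasm and hands it to a CUL3 ubiquitin ligase for destruction, and oxidants or electrophiles that modify cysteines of KEAP1 stop that process. Stabilised NRF2 pairs with small MAF proteins at antioxidant response elements and raises genes for glutathione and thioredoxin synthesis and reduction, quinone reduction, haem breakdown and NADPH supply. NRF2 is controlled mainly through protein stability, so its mRNA level is no measure of its activity. BACH1, which competes for the same elements, represses HMOX1 in particular.

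The letters shared by antioxidant response elements, TGACNNNGC, were searched on both strands of RefSeq promoter windows that run from 250 bases before to 50 bases after each transcription start (GRCh38.p14). Of 35116 windows, 13.3% held them. The search covered SRXN1 and the other 7 genes named above apart from HMOX1, whose promoter was not searched. These had 11 windows, and 4 windows of 3 genes held 6 matches in all. They are shown because GCLM, TXNRD1 and KEAP1 were each called different from WT in at least 2 clones, as described below. GCLC and NQO1 were also called in 2 clones, and their windows held no match. Each line gives the match in capitals with 10 bases on either side, read 5′ to 3′ on the strand of the gene. A match is a run of letters and not a measured binding site.

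GCLM, chr1:93909446-93909474, minus strand, match on the opposite strand: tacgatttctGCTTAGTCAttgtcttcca
TXNRD1, chr12:104215670-104215698, plus strand, match on the gene strand: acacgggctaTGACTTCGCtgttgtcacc
TXNRD1, chr12:104215761-104215789, plus strand, match on the opposite strand: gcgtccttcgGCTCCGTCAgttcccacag
TXNRD1, chr12:104286920-104286948, plus strand, match on the opposite strand: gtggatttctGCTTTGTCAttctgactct
KEAP1, chr19:10502807-10502835, minus strand, match on the gene strand: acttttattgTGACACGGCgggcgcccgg
KEAP1, chr19:10502784-10502812, minus strand, match on the opposite strand: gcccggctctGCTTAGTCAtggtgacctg

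By GENCODE 29 the first TXNRD1 match lies upstream of the gene, and the GCLM match and the second TXNRD1 match have 8 of their 9 letters upstream and 1 in the first base of the gene. The last TXNRD1 match and both KEAP1 matches lie in untranslated exons of at least 1 transcript. The matches at GCLM and at the second KEAP1 position carry the same 9 letters, GCTTAGTCA. That TXNRD1 match belongs to a second, downstream start of that gene. The printed windows of the pair of KEAP1 matches overlap at their ends, while the matches themselves do not.

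Effective library sizes, estimated by fitting the values of each library to whole reads, ran from 44.0 to 70.4 M reads (M, 1e6 reads). The least deeply covered of these genes, OSGIN1, still had an estimated 286 reads or more in every library. ASH1L mRNA itself was at log2 RPKM of 2.69, 2.54, 2.42 and 3.74 in KO1 to KO4, against 3.34, 3.30 and 3.22 in WT1 to WT3. The library labelled KO4 therefore had more ASH1L mRNA than any WT library, and mRNA across a stop codon does not measure the protein. Of 9 thyroid follicular markers, PAX8 and HHEX were listed, and only HHEX passed the filter on low values. Keratins 8 and 18 and the other 4 epithelial markers were all listed, at a summed level of 287 to 651 RPKM in the clones and 562 to 680 RPKM in WT. By the limma fit described below, 5 of the 6 were called lower in each of KO1, KO3 and KO4. In KO2, 2 were called higher and 1 lower. Of all genes, 24.9%, 18%, 19.9% and 14.4% were called lower in KO1 to KO4, and 15.5% higher in KO2. The 6 markers had median log2 differences of -1.21, 0.29, -1.32 and -0.71 in KO1 to KO4. Of 9 leukocyte markers only CD3D and CD14 were listed, and the one tested, CD3D, was at 0.00464 to 0.723 RPKM in the clones and at 8.29 to 10.5 RPKM in WT. CD3D passed the filter through WT alone. Of 9 fibroblast and endothelial markers 4 were listed, with a sum of 20.4 to 70.1 RPKM in the clones and 51.2 to 55.1 RPKM in WT for the 3 tested. The part of these shifts in the results below was not tested.

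Both comparisons used limma on the log2 RPKM values with Benjamini-Hochberg adjustment over 11154 genes, and a gene was called at an adjusted p below 0.05. In the first, the 4 clones were replicates of the knockout. It called 0.412% of all genes tested (46 genes) and 0 of the 8 pathway genes, of which 4 had an unadjusted p under 0.05, as did 1753 of all genes. The second set each clone against WT with the spread of the WT libraries alone, on the assumption that a single clone varies as they do. It called 44.1% of all genes for KO1, 33.5% for KO2, 34.1% for KO3 and 24.8% for KO4. These p-values set 1 library of a clone against WT and do not show what another clone with the same allele would do. Among the 8 genes, KO1 had 5 called, KO2 and KO3 had 4 each and KO4 had 2. Beside background shares this high, the counts for 8 genes say nothing particular about the pathway.

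**Figure D1:**
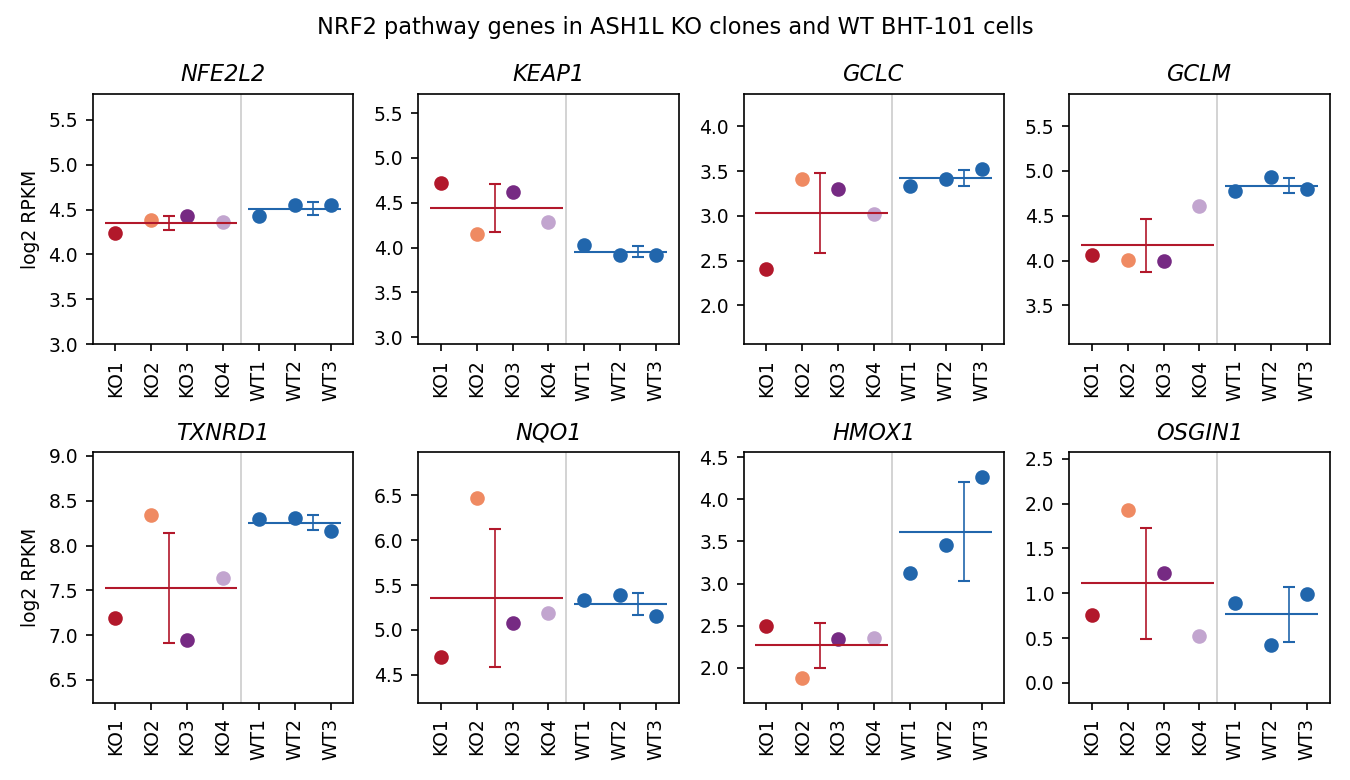
Level of each of the 8 listed genes as log2 RPKM on the vertical axis, with the 4 KO clones to the left and the 3 WT libraries to the right; lines are group means and bars are 1 SD. HMOX1, GCLM and, narrowly, NFE2L2 lay lower in all 4 clones than in any WT library, KEAP1 lay higher, and NQO1 and OSGIN1 stood highest in KO2.

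The regulators came first. NFE2L2 (chromosome 2, 177227595 to 177392697, minus strand, build hg38) had log2 RPKM values of 4.24, 4.38, 4.42 and 4.36 in KO1 to KO4, against 4.43, 4.55 and 4.55 in WT1 to WT3. All clones lay below all WT libraries, narrowly so for KO3. The means were 4.35 ± 0.08 in KO clones (SD, n = 4) and 4.51 ± 0.07 in WT (SD, n = 3), a log2 difference of -0.16 ± 0.10 (SE; 95% interval -0.39 to 0.07) with a limma adjusted p of 0.460. No single clone was called, with log2 differences of -0.27, -0.13, -0.09 and -0.15 for KO1 to KO4. The KO spread was among the smallest in the table, since 97.1% of tested genes had an SD at least as large among the clones.

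KEAP1, the substrate adaptor that marks NRF2 for destruction (chromosome 19, 10486120 to 10503741, minus strand), had the opposite order. Its log2 RPKM was 4.72, 4.15, 4.62 and 4.28 in KO1 to KO4, against 4.03, 3.92 and 3.92 in WT1 to WT3. Every clone was above every WT library. The mean was 4.44 ± 0.27 in KO clones and 3.96 ± 0.06 in WT, a log2 difference of 0.49 ± 0.16 (SE; 95% interval 0.12 to 0.86) with a limma adjusted p of 0.209. By clone, KEAP1 rose 1.70-fold in KO1 (adjusted p = 0.00158, limma) and 1.58-fold in KO3 (adjusted p = 0.00478, limma). In KO4 it was 1.26-fold (adjusted p = 0.0567) and in KO2 1.14-fold of WT (adjusted p = 0.186). The 146 tested genes within 5 Mb of KEAP1 had median log2 differences of 0.32, -0.25, 0.24 and 0.01 for KO1 to KO4. With that local median subtracted, KEAP1 was 0.45, 0.44, 0.43 and 0.33 above WT on the log2 scale for KO1 to KO4, and KO1, KO2 and KO3 were called, with limma adjusted p of 0.0180, 0.0230 and 0.0272.

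GCLC and GCLM encode the catalytic and the modifier subunit of glutamate-cysteine ligase, the rate-limiting enzyme of glutathione synthesis, and they differed in which clones were low. GCLM (chromosome 1, 93885205 to 93909456, minus strand) was at log2 RPKM of 4.07, 4.00, 4.00 and 4.61 in KO1 to KO4, against 4.78, 4.93 and 4.80 in WT1 to WT3. All clones were below WT, with KO4 much nearer to it than the other 3. The means were 4.17 ± 0.29 in KO clones and 4.84 ± 0.08 in WT, with a log2 difference of -0.67 ± 0.17 (SE; 95% interval -1.06 to -0.27) and a limma adjusted p of 0.145. It fell to 0.587 of WT in KO1, 0.561 in KO2 and 0.560 in KO3, with limma adjusted p of 0.00188, 0.00275 and 0.00241, and was at 0.854 of WT in KO4 (adjusted p = 0.159).

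GCLC (chromosome 6, 53497341 to 53616970, minus strand) was at log2 RPKM of 2.41, 3.41, 3.30 and 3.02 in KO1 to KO4, against 3.33, 3.41 and 3.52 in WT1 to WT3. KO1 stood about 1 log2 unit below WT, KO2 was inside the WT range and the groups overlapped. It fell to 0.497 of WT in KO1 (limma adjusted p = 0.000895) and to 0.757 of WT in KO4 (adjusted p = 0.0488, lost in 6 of 10 alternative settings). Over the 4 clones the log2 difference was -0.39 ± 0.24 (SE), with a limma adjusted p of 0.458. In KO1 GCLC and GCLM were both lower, whereas in KO2 and KO3 GCLM alone was called. A test of that difference between the subunits was not run.

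TXNRD1 encodes the cytosolic thioredoxin reductase, a selenoprotein that returns thioredoxin to its reduced form with NADPH (chromosome 12, 104215779 to 104350305, plus strand). It was the most abundant of the 8 genes per length in every library, at 146, 325, 123 and 199 RPKM in KO1 to KO4, against 314, 317 and 286 RPKM in WT1 to WT3. KO2 was level with WT, and the other 3 clones were below every WT library. The log2 means were 7.53 ± 0.62 in KO clones and 8.25 ± 0.08 in WT, with a log2 difference of -0.73 ± 0.31 (SE; 95% interval -1.45 to -0.01) and a limma adjusted p of 0.316. TXNRD1 fell to 0.477 of WT in KO1, 0.402 in KO3 and 0.651 in KO4, with limma adjusted p of 0.000468, 0.000477 and 0.00902. In KO2 it was at 1.07 of WT (adjusted p = 0.534). The 45 tested genes within 5 Mb had a median log2 difference of -0.31 in KO1 and -0.21 in KO4, and TXNRD1 was still called in KO1, KO3 and KO4 with this median subtracted.

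NQO1, the quinone reductase that moves a pair of electrons at once to quinones (chromosome 16, 69706996 to 69726951, minus strand), had clones on either side of WT. It was at 25.9, 88.8, 33.6 and 36.5 RPKM in KO1 to KO4, against 40.2, 42.0 and 35.6 RPKM in WT1 to WT3. KO2 was far above WT, KO1 and KO3 were below it, and KO4 was within the WT range. NQO1 rose 2.27-fold in KO2 (limma adjusted p = 0.00136) and fell to 0.661 of WT in KO1 (adjusted p = 0.00849). Over the 4 clones the log2 difference was 0.07 ± 0.38 (SE; 95% interval -0.83 to 0.96; limma adjusted p = 0.956), and without KO2 it was -0.31.

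HMOX1 encodes haem oxygenase 1, which opens haem to biliverdin, carbon monoxide and iron (chromosome 22, 35380361 to 35394214, plus strand), and showed the largest mean difference of the 8 genes. Its level was 5.63, 3.68, 5.05 and 5.10 RPKM in KO1 to KO4, against 8.72, 11.0 and 19.2 RPKM in WT1 to WT3. All clones lay below all WT libraries. The log2 means were 2.27 ± 0.27 in KO clones (SD, n = 4) and 3.62 ± 0.58 in WT (SD, n = 3), a log2 difference of -1.35 ± 0.28 (SE; 95% interval -1.999 to -0.70). The limma adjusted p was 0.0964, above the threshold, and stayed between 0.0735 and 0.423 under 15 alternative settings. Permuting the labels of the 7 libraries exactly, two-sided, over all 35 splits gave p = 0.0286, the smallest possible here. By clone, HMOX1 fell to 0.301 of WT in KO2 (limma adjusted p = 0.0183) and 0.412 in KO3 (adjusted p = 0.0461, above 0.05 in 4 of 10 alternative settings), and was at 0.460 in KO1 and 0.416 in KO4 (adjusted p = 0.0565 and 0.0584).

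The WT libraries were themselves far apart for HMOX1. Only 0.735% of tested genes had a WT SD as large, and WT3 was above WT1 by 1.14 on the log2 scale. Genes of the ATF4 pathway, the amino acid and endoplasmic reticulum stress response, were spread in the same order in 9 of 10 cases, ATF5 being the exception. The share of all tested genes in that order was not counted. It was not confined to the ATF4 pathway list. SLC7A11, a glutathione gene named after its values were seen, was at 3.57, 7.72 and 14.8 RPKM in WT1 to WT3. The median of the 10 listed ATF4 pathway genes lay at -0.71, 0.03 and 0.81 log2 units from the WT mean in WT1, WT2 and WT3. Against WT, that list had medians of -0.71, -0.64, -0.72 and -0.81 in KO1 to KO4. Over the 4 clones the median was -0.75, and it was -1.18 without WT1 and -0.31 without WT3; 9 of 10 log2 differences were negative. Of these 10 genes, 0 were called in the 4 clones together (3 had an unadjusted p under 0.05), and KO1, KO3 and KO4 had 1 called each. TRIB3, a pseudokinase gene induced by ATF4, was at log2 RPKM of 4.57, 5.38, 5.14 and 4.74 in KO1 to KO4, against 5.86, 6.53 and 7.24 in WT1 to WT3 (log2 difference -1.59 ± 0.33 SE; limma adjusted p = 0.0991). ASNS, asparagine synthetase, was at 4.58, 4.31, 4.89 and 4.23 in KO1 to KO4, against 4.50, 6.02 and 7.31 in WT1 to WT3, so its groups overlapped through WT1. The part of whatever separated the WT libraries in the HMOX1 difference was not tested.

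**Figure D2:**
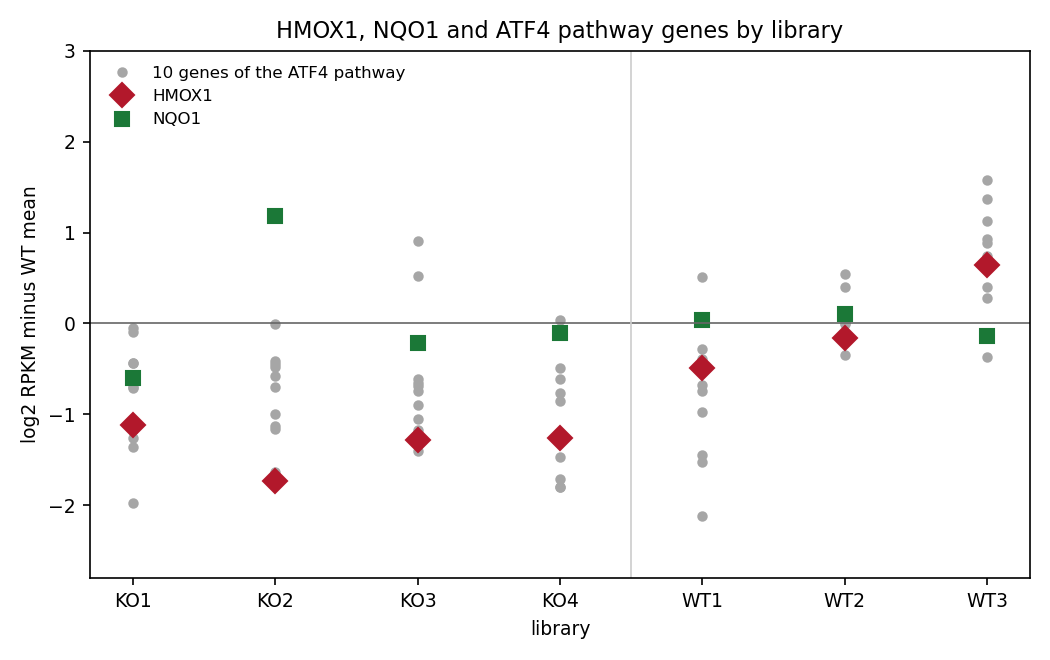
HMOX1 (diamonds), NQO1 (squares) and the 10 listed genes of the ATF4 pathway (grey points) in each library, as log2 RPKM minus the WT mean of the same gene, KO clones to the left of WT libraries. HMOX1 lay below every WT library in all 4 clones and was in the order WT1, WT2, WT3 among the WT libraries, as was the median of the ATF4 pathway genes (-0.71, 0.03 and 0.81), whereas NQO1 varied little in WT and was high in KO2.

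OSGIN1, an oxidative stress induced growth inhibitor (chromosome 16, 83948282 to 83966332, plus strand), was the least abundant of the 8 in every library but KO2, where HMOX1 was lower. It was at 1.69, 3.82, 2.34 and 1.43 RPKM in KO1 to KO4, against 1.85, 1.34 and 1.99 RPKM in WT1 to WT3, which stood for 286 to 835 reads in the clones and 291 to 410 in WT. KO2 and KO3 were above every WT library and the groups overlapped. OSGIN1 rose 2.25-fold in KO2 (limma adjusted p = 0.0140). KO3 was at 1.38 of WT (adjusted p = 0.182), and the mean log2 difference over the 4 clones was 0.34 ± 0.35 (SE; limma adjusted p = 0.658).

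Of the 8 genes, 4 had clones and WT apart without overlap, namely KEAP1 above WT, and HMOX1, GCLM and NFE2L2 below it. Of all tested genes 19% had such a separation, 8.88% above and 10.1% below. For KEAP1, GCLM and NFE2L2 the same exact permutation test gave p = 0.0571 each. The median log2 difference of the 8 genes was -0.27, with 3 positive and 5 negative, against a median of -0.02 over all tested genes. Higher calls numbered 1, 2, 1 and 0 for KO1 to KO4, against 19.2%, 15.5%, 14.2% and 10.4% of all genes. Lower calls numbered 4, 2, 3 and 2 for KO1 to KO4, against 24.9%, 18%, 19.9% and 14.4% of all genes. No gene was called in all 4 clones in the fit reported here. TXNRD1 and GCLM were each called lower in 3, and KEAP1 higher in 2.

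**Figure D3:**
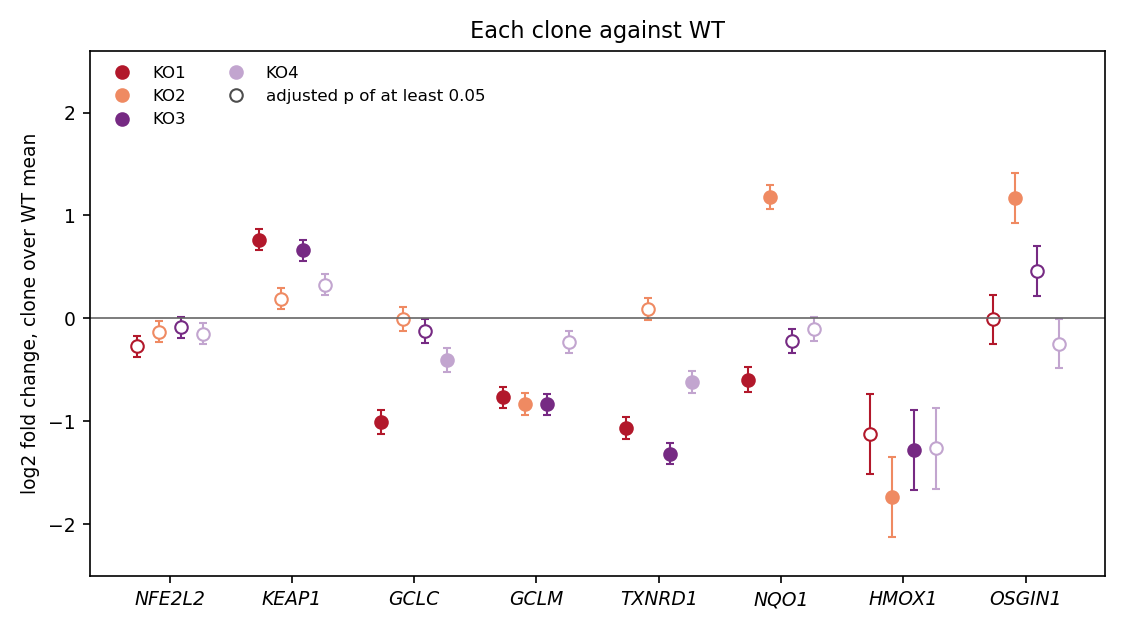
Log2 difference of each clone from the WT mean for the 8 genes, with bars of 1 SE from the limma fit; filled points have an adjusted p below 0.05. KO2 is the clone with NQO1 and OSGIN1 above WT and TXNRD1 at the WT level, whereas KO1 has 4 of the 8 genes called lower.

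Genes in and around the pathway were described with 10 further lists, which also cover the ATF4 pathway, heat shock, metal response and oxidant producers. The lists pool genes that NRF2 raises with its repressors and turnover factors, so their totals do not measure the pathway alone. They hold 135 genes, of which 113 were tested. None was called by limma in the 4 clones together, where 19 had an unadjusted p under 0.05; for KO1 66 were called (58.4%, against 44.1% of all genes), for KO2 47 (41.6%, against 33.5%), for KO3 43 (38.1%, against 34.1%) and for KO4 36 (31.9%, against 24.8%). The direction differed by clone. In KO1, 20 rose and 46 fell, in KO3, 12 rose and 31 fell, in KO4, 9 rose and 27 fell, while in KO2, 29 rose and 18 fell. These counts stand against the shares of all genes called higher and lower in each clone, given above and again for the next list, and no list was tested against them. Whether KO2 differed from the other clones was not tested, since each clone is 1 library.

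The clones also lay on both sides of WT among 13 tested detoxification genes, which include enzymes that reduce carbonyls, open epoxides or supply UDP-glucuronate. PIR, TRIM16 and TRIM16L, also on that list, do not encode enzymes of those kinds. In KO2, 9 rose and 2 fell; in KO1, 1 rose and 9 fell; in KO3, 1 rose and 10 fell; in KO4, 7 fell and 0 rose, where 15.5% of all genes rose and 18% fell in KO2, 19.2% and 24.9% in KO1, 14.2% and 19.9% in KO3, and 10.4% and 14.4% in KO4. Their clone medians were -0.91, 0.87, -0.50 and -0.52 log2 units in KO1 to KO4, and the KO against WT median was -0.65. Summed over these 13 genes, the level was 126, 456, 182 and 168 RPKM in KO1 to KO4, against 300, 323 and 321 RPKM in WT1 to WT3.

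AKR1B10, an aldo-keto reductase that clears reactive aldehydes, had the widest range, with log2 RPKM of -2.40, 6.40, 1.38 and 1.61 in KO1 to KO4, against 5.69, 5.71 and 5.31 in WT1 to WT3. KO1 held an estimated 16 reads of it, against 9330 in KO2 and 4141 to 5736 in WT. It rose 1.78-fold in KO2 (limma adjusted p = 0.0143) and fell to 0.00399, 0.0546 and 0.0641 of WT in KO1, KO3 and KO4. AKR1C3, a hydroxysteroid and prostaglandin reductase, was at -0.27, 6.04, 1.26 and 2.81 in KO1 to KO4, against 4.61, 4.76 and 4.59 in WT1 to WT3, and it was called higher in KO2 and lower in the other 3 clones. AKR1C1 and AKR1C2, named after their values were seen, had the same calls, but the AKR1C genes are near-identical copies and the counting could have split reads among them. EPHX1, microsomal epoxide hydrolase, and UGDH, which makes UDP-glucuronate, were also named after their values were seen: EPHX1 was at 1.89 of WT in KO2 and 0.257, 0.561 and 0.342 in KO1, KO3 and KO4, and UGDH at 1.88 and at 0.240, 0.774 and 0.424, all called. AKR1B1, the aldose reductase gene, went with none of these, falling in every clone, to 0.533, 0.609, 0.723 and 0.698 of WT in KO1 to KO4 (limma adjusted p of 0.00311, 0.0119, 0.0440 and 0.0402; KO against WT adjusted p = 0.111).

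**Figure D4:**
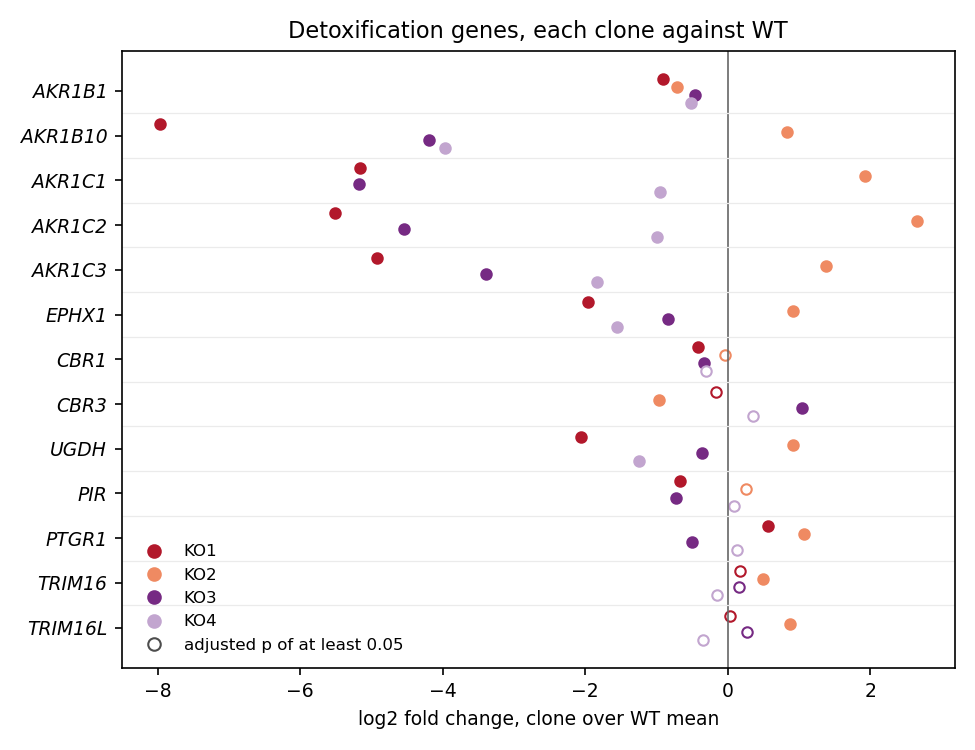
Log2 difference from the WT mean of each of the 13 tested detoxification genes in each of the 4 clones; filled points have a limma adjusted p below 0.05. Most genes lie above 0 in KO2 and below 0 in KO1, KO3 and KO4, with AKR1B10 and the AKR1C genes the farthest from WT.

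Among 15 tested glutathione genes, 14 of the log2 differences over the 4 clones were negative, with a median of -0.30. Negative differences were also found for 5914 of all 11154 tested genes. The shares of all genes called in each clone, given above, are the measure for the counts in this and each later list. Some of the counts lie near or below those shares, and no list was tested against them. By clone, 9 fell and 2 rose in KO1, 3 fell and 4 rose in KO2, 5 fell and 0 rose in KO3, and 6 fell and 0 rose in KO4. GSTA4, a glutathione transferase for lipid peroxidation aldehydes, was at log2 RPKM of -0.26, -0.08, -0.14 and -0.24 in KO1 to KO4, against 0.85, 0.80 and 0.93 in WT1 to WT3. It was called lower in all 4 clones, at 0.461 to 0.521 of WT, and had a log2 difference of -1.04 ± 0.20 (SE) over them, with a limma adjusted p of 0.0850. It was called there without the trend (adjusted p = 0.0252) and without KO2 (adjusted p = 0.0486). GSTA4 was above log2 RPKM 0 in WT alone, and had an estimated 87 to 130 reads in the clones. The filter thus let it in through WT, which favours a lower level in the clones. ABCC3, an exporter of glucuronide and bile salt conjugates, fell in KO1, KO3 and KO4 and rose in KO2. GSTP1, the pi-class glutathione transferase, had log2 differences of -0.69, -0.43, -0.23 and -0.20 for KO1 to KO4, of which KO1 and KO2 were called.

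Of 17 thioredoxin, peroxiredoxin and glutaredoxin genes tested, 12 had negative differences over the clones, with a median of -0.18, which was -0.076 without KO1, -0.31 without KO2 and -0.31 without KO3. In KO1 8 fell and 3 rose, in KO2 5 fell and 2 rose, and in KO3 and KO4 5 fell and 0 rose each. GLRX2, the mitochondrial glutaredoxin, fell in every clone, to 0.385, 0.601, 0.745 and 0.486 of WT in KO1 to KO4 (KO against WT log2 difference -0.89 ± 0.22 SE; limma adjusted p = 0.135). PRDX3, the mitochondrial peroxiredoxin, fell in KO1, KO3 and KO4, to 0.570, 0.703 and 0.671 of WT, and was at 0.957 in KO2. Without KO2 it was called over the other 3 clones (limma adjusted p = 0.0486).

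The NADPH list of 8 had a median of -0.20. By clone, 0 rose and 4 fell in KO1, 3 rose and 1 fell in KO2, 0 rose and 2 fell in KO3, and none was called in KO4. NNT, the mitochondrial transhydrogenase that makes NADPH from NADH, was at log2 RPKM of 3.42, 3.78, 3.65 and 3.61 in KO1 to KO4, against 3.88, 3.94 and 3.81 in WT1 to WT3. All clones lay below all WT libraries, and KO1 was the one called. TKT, the transketolase of the pentose phosphate pathway, was called lower in KO3 alone, with a log2 difference of -0.67.

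Among 17 partners and turnover factors of NRF2, the median difference was -0.0046, with 8 positive and 9 negative, and 4 or 5 were called in each clone. BACH2, a repressor related to BACH1, was at log2 RPKM of 0.45, -0.10, 0.40 and 0.30 in KO1 to KO4, against -0.74, -0.58 and -0.65 in WT1 to WT3, and rose in KO1, KO3 and KO4. Over the 4 clones it was called after quantile normalization alone (limma adjusted p = 0.0467). BACH2 was above log2 RPKM 0 in KO1, KO3 and KO4 alone. The filter thus let it in through the clones in which it rose, which favours a higher level there. MAFF, a small MAF partner, fell in KO1 and KO4, to 0.562 and 0.489 of WT. SQSTM1, the autophagy receptor that binds KEAP1, was chosen after its values were seen; it rose 1.87-fold in KO2 (limma adjusted p = 0.0102) and was at 0.810, 0.735 and 0.708 of WT in KO1, KO3 and KO4, none of them called.

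Of 10 tested haem and iron genes, 2 rose and 6 fell in KO1, 3 rose and 2 fell in KO2, 1 rose and 1 fell in KO3, and 1 rose and 3 fell in KO4. FTH1, the ferritin heavy chain and a gene with many processed pseudogenes, fell to 0.647, 0.738 and 0.714 of WT in KO1, KO3 and KO4 and was at 1.05 in KO2. TFRC, the transferrin receptor, was above WT in all 4 clones, at 2.38, 1.62, 1.33 and 1.68 of WT in KO1 to KO4, with KO3 the one not called (KO against WT log2 difference 0.78 ± 0.20 SE; limma adjusted p = 0.153). Of 9 genes for superoxide and peroxide removal, 2 rose and 3 fell in KO1, 2 rose and 1 fell in KO2, 1 rose and 3 fell in KO3, and 3 rose and 1 fell in KO4. SOD1, the cytosolic superoxide dismutase, was below every WT library in all clones, at 0.822, 0.745, 0.667 and 0.812 of WT, and called in KO1, KO2 and KO3.

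Of 10 genes for oxidant-producing NADPH oxidases, CYBA was the only one tested, and it fell in KO1. The 13 tested heat shock and metal response genes had a median of 0.21; 7 rose and 3 fell in KO1, 3 rose and 3 fell in KO2, 7 rose and 1 fell in KO3, and 3 rose and 1 fell in KO4. The metallothionein MT1F was at log2 RPKM of 2.59, 1.05, 4.79 and -0.14 in KO1 to KO4, against -0.75, -0.37 and -0.60 in WT1 to WT3, and was called higher in KO1, KO2 and KO3. MT1F passed the filter through KO1, KO2 and KO3 alone, which favours a higher level in those clones. Metallothionein genes are close copies of each other, so their separate levels are uncertain.

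For HMOX1, NQO1 and OSGIN1, 9389 genes whose mean log2 RPKM was 1 or more were ranked by the root mean square difference between profiles over the 7 libraries, each centred on its mean. Closest to HMOX1 were SLC1A4 (0.222 log2 units), TBL1X (0.284) and TBRG1 (0.327). Closest to NQO1 were TMEM62 (0.136), HDHD3 (0.166) and DOK4 (0.167), and closest to OSGIN1 were NINJ1 (0.116), TRIM16L (0.194) and FNIP2 (0.209). NINJ1 was at log2 RPKM of 3.22, 4.38, 3.62 and 3.01 in KO1 to KO4, against 3.18, 3.07 and 3.29 in WT1 to WT3. TRIM16L was one of the listed detoxification genes.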

How the data were processed

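RNA-seq libraries of 4 ASH1L KO clones and 3 WT replicates of BHT-101 were analysed; labels do not say how ribosomal RNA was avoided. The authors deposited log2 RPKM for 13142 genes; the submitters' processing notes name edgeR, HTSeq 0.11.2, STAR 2.5.3a and Trim Galore 0.4.1, and hg38. The annotation, prior count and strand setting are not given in the sources used here, so genes that overlap may share reads. For 7 genes, 2 to 4 libraries shared the lowest value and were taken to hold no reads. With GENCODE 29 exon lengths and an assumed prior count of 0.25 reads, these values gave a mean library of 58.0 M (1e6) reads. The size of each library was then fitted to bring its values to whole reads. With these sizes 93.9% to 94.8% of values of 300 to 1000 reads were whole within 0.05 reads, as were 7 of the 8 listed pathway genes in every library. Reads serve here as depth only; the tests used the log2 values, without a pseudocount. Counting errors cover sampling alone.

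Genes with log2 RPKM above 0 in at least 3 libraries (11154) were tested with limma 3.58.1 in R 4.3.3, with a trend on mean level and Benjamini-Hochberg adjustment. KO against WT used 4 and 3 libraries; each clone against WT took the spread from the WT libraries. Single pathway genes also had an exact permutation test. Named were the 9 pathway genes, ASH1L, up to 4 genes per list by smallest unadjusted p, and the 3 nearest profiles for 3 genes; others are marked as chosen after their values were seen. The pathway genes and lists were chosen with earlier results of these data known. Positions came from GENCODE 29 for 93.6% of genes, and sequences from RefSeq (GRCh38.p14). Alternatives covered filters, a pseudocount of 0.5 RPKM, scaling, trend, chromosome position, replicate numbers as a block and each library left out. Simulated data were used to test the procedures. The numbers name clones in KO and replicates in WT, so they were not treated as pairs. The setting with numbers as a block thus joined libraries that the labels do not pair. Same-numbered libraries had deviations correlated at 0.060, 0.066 and -0.012 for numbers 1, 2 and 3. With clones that differ this widely, such values cannot exclude a shared batch. One of the listed genes is not reported here.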

Additional observations from a re-analysis of the deposited data

Results flagged for a closer look

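Among 55 genes examined over the 4 clones, 3 had 1 clone far from the other 3, judged by Dixon's gap over range against its 95% critical value for 4 samples. Chance gives such a gap in about 1 of 20 genes. GCLM in KO4 was at log2 RPKM of 4.61, with a gap of 0.889 of the range, above the other clones and closer to WT. HMOX2, the constitutive haem oxygenase gene, was at 2.15 in KO3, with a gap of 0.866, while KO1, KO2 and KO4 were between 1.45 and 1.54 and WT was between 2.03 and 2.16. CYBA in KO1 was at 5.51, with a gap of 0.899, below the other clones. What set these clones apart was not tested.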

How the results depend on the processing

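KO against WT called 46 genes, against 30 with a stricter filter, 114 after quantile normalization, 1 with the local chromosome median subtracted and 0 with the replicate number as a block, in which KO4 has no partner; leaving out 1 library gave 0 to 236, with 0 without any single WT library, 1 without KO4 and 236 without KO2. Higher calls were 41.3% of the 46 and 56.1% after quantile normalization. Single clones called 3088 to 5833 genes in KO1 (4919 with all libraries), 1743 to 4867 in KO2 (3736), 1706 to 4906 in KO3 (3805) and 1153 to 3972 in KO4 (2769) with 1 WT library left out, and 3248 in KO1 and 2520 in KO3 with the local median subtracted. Pathway genes called in KO4 were 1 in place of 2 with the stricter filter, quantile normalization, no trend or local centring, and 0 to 4 with 1 WT library left out. Detoxification genes called with local centring were 6 in KO1 and 7 in KO3, and with 1 WT library left out 7 to 11 in KO3 and 4 to 8 in KO4. Directions turned for NQO1 in KO against WT (-0.013 with local centring, -0.31 without KO2, -0.0039 without WT3, and -0.31 to 0.29 with any 1 library left out), OSGIN1 in KO1 (0.15 after quantile normalization, 0.066 after median centring, and -0.18 to 0.10 with 1 WT library left out), GCLC in KO2 (0.24 with local centring, and -0.052 to 0.041 with 1 WT library left out), NFE2L2 in KO3 (0.047 with local centring) and LUM in KO against WT (0.0087 with local centring); none of these was called in either form. HMOX1 was called in KO1 and KO4 without WT1 (adjusted p = 0.000508 and 0.000468) or without WT3 (0.00789 and 0.00787), and lost in KO3 after quantile normalization, median centring, without the trend or without WT2. TXNRD1 in KO4 was lost without WT2. KEAP1 was called in KO4 after median centring or without WT3 (adjusted p = 0.0388 and 0.0391), and NQO1 in KO3 without WT3 (0.0274). The thioredoxin list's median was -0.34 with the stricter filter. Of 435 values of the pathway genes, 406 kept direction and call, 11 lost the call, 8 gained it and 10 turned. OSGIN1 was not tested with the stricter filter, and the cause of these changes was not tested. Counting limits OSGIN1 most, at 286 reads in its lowest library.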
